A study of Rattus norvegicus with 23 samples.

Results

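The genes of antigen presentation were followed through microglia of newborn rats that had received an inflammatory stimulus, a hypoxic-ischemic (HI) insult, both or neither. They were taken as all rows of the expression table whose symbol starts with RT1-, the name of the major histocompatibility complex (MHC) of the rat, together with 13 named genes of peptide supply, regulation and costimulation. The table held 31 RT1 rows and 12 of the 13 named genes, 43 members of 20301 genes in all, and Psmb10 was not analysed here. Of the members, 27 belong to class I (20 RT1 rows and 7 genes of the class I machinery), 13 to class II (11 RT1 rows, Ciita and Cd74) and 3 to costimulation. No member had the same values as another row, so that each was counted once.

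RNA was sequenced from cells that had been bound to CD11b/c magnetic beads 24 h after the operation from brains of Wistar rats of both sexes at postnatal day 7. Sham pups (n = 6) had a neck incision and no listed injection, and LPS pups (n = 5) received lipopolysaccharide, a component of the bacterial outer membrane, at 0.1 mg/kg 4 h before the same incision. NaCl/HI samples (n = 6) came from pups injected with saline, and LPS/HI samples (n = 6) from pups injected with the same LPS dose, and both of these groups then had the left common carotid artery ligated and breathed 8% oxygen for 50 min. All groups shared the outbred Wistar background, the anesthesia and the bead isolation. Samples of Sham and LPS were made from whole brains of single pups, whereas those of both HI groups held the ipsilateral hemispheres of 2 pups, so that HI cannot be told apart from the tissue taken and from pooling. An effect of LPS against Sham cannot be told apart from one of the injection, which Sham pups did not have. The beads bind other cells that carry CD11b or CD11c, such as monocytes, neutrophils and some dendritic cells, and in bulk RNA fewer cells of a type and less RNA per cell cannot be told apart.

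MHC class I molecules show peptides from the inside of a cell to CD8+ T cells, and almost every nucleated cell can carry them. Their peptides are cut by the proteasome, whose catalytic subunits are exchanged for those of the immunoproteasome under interferon, then pumped into the endoplasmic reticulum by the Tap1 and Tap2 transporter and loaded with the help of tapasin onto a heavy chain bound to B2m. MHC class II molecules are built with the invariant chain Cd74, meet peptides in endosomes under the control of the DM and DO proteins, and are shown to CD4+ T cells together with costimulatory ligands. Microglia at rest carry little class II and raise it in many disease states.

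Tap1, Tap2, Psmb8 and Psmb9 lie among the class II genes on rat chromosome 20, while of the other machinery genes Tapbp is on the same chromosome, B2m on chromosome 3 and Nlrc5 on chromosome 19. In the order of the annotated genes there, Tap2 and Psmb8 precede Tap1, Psmb9 follows it head to head, and RT1-DMb and RT1-DMa come next. In RefSeq sequence, promoter windows of 250 bases before to 50 bases after an annotated start were found for 36 of the 43 members. The starts of Tap1 and Psmb9 are 456 bases apart, so that their windows overlap. The upstream sequences of the machinery genes that were called in LPS against Sham, with that of Tap1 for comparison, are printed 5′ to 3′ on the strand of the gene in build GRCr8, with matches to the core of the interferon-stimulated response element in capitals (GAAA, any 2 bases and GAAA again, on either strand). The stretches are chr20:4967878-4968127, - strand for Tapbp, chr20:4657022-4657281, - strand for Psmb8, chr20:4668750-4668999, + strand for Psmb9 and chr20:4668544-4668793, - strand for Tap1.
Tapbp: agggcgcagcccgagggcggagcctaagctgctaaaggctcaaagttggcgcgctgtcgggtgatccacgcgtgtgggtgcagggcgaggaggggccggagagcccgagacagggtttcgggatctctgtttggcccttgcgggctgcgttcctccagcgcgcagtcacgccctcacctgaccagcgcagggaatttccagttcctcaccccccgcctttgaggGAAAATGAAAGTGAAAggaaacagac
Psmb8: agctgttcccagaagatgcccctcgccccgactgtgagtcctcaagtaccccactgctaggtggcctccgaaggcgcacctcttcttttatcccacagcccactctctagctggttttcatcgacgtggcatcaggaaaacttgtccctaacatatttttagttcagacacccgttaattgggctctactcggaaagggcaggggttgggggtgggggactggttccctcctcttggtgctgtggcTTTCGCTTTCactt
Psmb9: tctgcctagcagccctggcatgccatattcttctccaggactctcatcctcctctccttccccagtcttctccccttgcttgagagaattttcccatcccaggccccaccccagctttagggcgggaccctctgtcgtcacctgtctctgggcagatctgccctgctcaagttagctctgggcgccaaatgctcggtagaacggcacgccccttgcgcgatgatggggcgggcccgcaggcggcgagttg
Tap1: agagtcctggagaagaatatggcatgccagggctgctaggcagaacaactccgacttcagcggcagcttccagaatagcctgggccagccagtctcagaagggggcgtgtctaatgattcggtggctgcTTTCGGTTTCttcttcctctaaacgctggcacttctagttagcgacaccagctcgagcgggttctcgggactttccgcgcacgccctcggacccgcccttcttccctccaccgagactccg
The Tapbp stretch holds 2 overlapping matches that end close to the start, the Psmb8 match spans the annotated start, and the Psmb9 stretch holds none. This core was found in the windows of 9 members, which were B2m, Tap1, Tap2, Tapbp, Psmb8, RT1-N3, RT1-S3, RT1-S2 and Cd80, and in 3.92% of all 33469 windows. A match is a run of letters and was not shown to be a bound site.

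For class II, the proximal promoter is known for an X box bound by the RFX complex and a Y box bound by NF-Y, on which Ciita is assembled. The stretches from 150 to 31 bases before the start of the 4 classical class II chains are given because their levels followed each other from sample to sample, with the Y box (CTGATTGG) and the X box (AGCAAC, any base, GATG) in capitals where present. They lie at chr20:4515265-4515384, + strand for RT1-Da, chr20:4560193-4560312, - strand for RT1-Db1, chr20:4576907-4577026, + strand for RT1-Ba and chr20:4604149-4604268, - strand for RT1-Bb.
RT1-Da: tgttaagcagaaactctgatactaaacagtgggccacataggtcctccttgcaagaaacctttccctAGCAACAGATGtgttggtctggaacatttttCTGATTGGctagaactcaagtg
RT1-Db1: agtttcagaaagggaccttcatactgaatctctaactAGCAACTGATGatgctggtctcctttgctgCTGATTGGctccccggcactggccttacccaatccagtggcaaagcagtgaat
RT1-Ba: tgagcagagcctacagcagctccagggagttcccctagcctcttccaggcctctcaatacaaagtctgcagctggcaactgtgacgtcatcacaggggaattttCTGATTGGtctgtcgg
RT1-Bb: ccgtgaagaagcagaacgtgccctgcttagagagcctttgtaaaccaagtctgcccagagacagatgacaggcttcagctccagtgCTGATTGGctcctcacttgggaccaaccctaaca
All 4 stretches hold the Y box, and those of RT1-Da and RT1-Db1 also hold the X box upstream of it. Searched on both strands, the Y box letters occurred in windows of 15 members and in 3.5% of all windows, and the X box letters in windows of RT1-Da, RT1-Db1, RT1-Db2 and RT1-DOb and in 0.0478% of all windows.

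Values are log2 levels after the regularized log (rlog) transformation, in which genes with low counts are drawn toward their mean, and the authors had removed 3 surrogate variables from them. They are not scaled to gene length, so that levels of 2 genes are not compared. Depth is unknown, as the table holds no counts. Differences were tested with limma in 1 fit of all 23 samples, and a gene was called at an adjusted p under 0.05 over all 20301 genes. Around their group means the samples span 16 dimensions instead of 19, and p-values may come out too low. All 10 microglia markers were detected, with a summed level of 17.73 to 18.01 in every sample. Summed levels of the other marker lists are given per list and not compared between lists. They were 14.95 to 16.05 for border-associated macrophages, 12.70 to 13.67 for monocytes, 10.56 to 12.99 for neutrophils, 13.33 to 13.80 for dendritic cells, 8.92 to 9.32 for T and NK cells and 7.67 to 8.08 for B cells. A sum follows its highest markers. In the dendritic cell list this is Fscn1 (mean 13.16), while Flt3, Xcr1, Clec9a and Ccr7 had means of 5.33, 4.00, 4.42 and 3.79. For B cells and for T and NK cells, 3 measured markers of each had a mean under 3, among them the B cell markers Ms4a1 and Pax5 (both 0.78).

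In LPS, 6 members rose, led by tapasin and the immunoproteasome subunits Psmb9 and Psmb8, and 1 fell. Class I, which holds 27 of the 43 members, had 5 of the 6 that rose, and the 1 that fell belonged to class II. Against Sham, 6 of the 43 members were higher and 1 was lower, which is 16.3% of the members against 17.8% of all genes (10.2% higher and 7.56% lower). In this fit the share of members called was close to that of the whole table. So was the share of class I members called (18.5%), and 7.69% of class II members were lower beside 7.56% of all genes. With quantile normalization 4 members (3 higher and 1 lower) and 3415 genes were called. By class, 3 of the 7 machinery genes and 2 of the 20 class I RT1 rows were higher, 1 of the 3 costimulatory genes was higher, and 1 of the 13 class II members was lower. The median difference was 0.25 over the machinery genes, 0.10 over the class I RT1 rows, -0.05 over class II and -0.01 over all genes. The machinery differences were positive in 7 of 7 genes, and the class II differences in 4 of 13, beside 8986 of 20301 genes in all. Several class II rows vary together, so such counts are not independent. No member reached a fold change of 2, which 0.069% of all genes did with an adjusted p under 0.05. In 3 members, namely Tapbp, Psmb9 and RT1-DOa, the LPS samples did not overlap with the Sham samples, as in 13.9% of all genes. RT1-DOa was at that limit, since its highest LPS and its lowest Sham sample both rounded to 5.92.

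**Figure D1:**
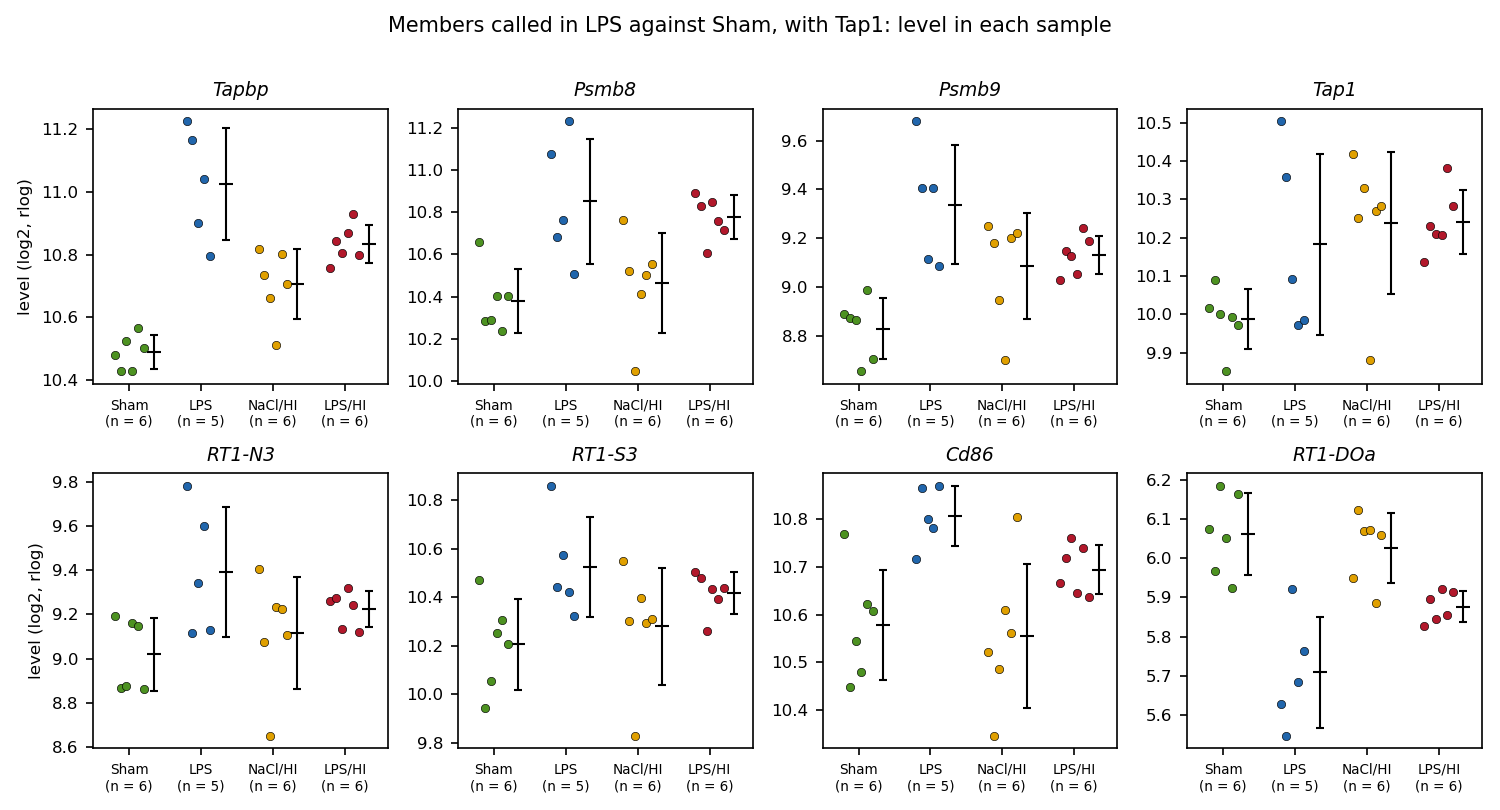
Level (log2, rlog) of the 7 members called in LPS against Sham and of Tap1 in every sample of the 4 groups. Points are samples and bars are the group mean ± SD. For Tapbp and Psmb9 all LPS points sit above all Sham points, and for RT1-DOa they sit below.

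Tapbp encodes tapasin, which holds empty class I molecules at the Tap transporter and favours well-fitting peptides. Its level in Sham ran from 10.43 to 10.57 with a median of 10.49, whereas the 5 LPS samples had 11.23, 11.17, 10.90, 11.04 and 10.79. In NaCl/HI it ran from 10.51 to 10.82 with a median of 10.72, and in LPS/HI from 10.76 to 10.93 with a median of 10.82. All LPS and all LPS/HI samples lay above all Sham samples, NaCl/HI lay between Sham and LPS and overlapped both, and LPS/HI overlapped the lower LPS samples. The difference was 0.54 (SE 0.07, limma adjusted p = 1.1e-05) for LPS against Sham, a 1.45-fold level, and 0.35 (SE 0.06, limma adjusted p = 0.00368) for LPS/HI against Sham. NaCl/HI against Sham gave 0.22 (SE 0.06) and was not called (limma adjusted p = 0.164), although all 6 NaCl/HI samples lay above the Sham mean.

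Psmb8 and Psmb9 are catalytic subunits of the immunoproteasome. Psmb8 ran from 10.24 to 10.66 with a median of 10.34 in Sham, and the LPS samples had 11.08, 10.68, 10.76, 11.23 and 10.51. It ran from 10.04 to 10.76 with a median of 10.51 in NaCl/HI and from 10.60 to 10.89 with a median of 10.80 in LPS/HI. LPS overlapped with Sham through 1 high Sham sample, and the 2 highest LPS samples exceeded every sample of the other groups. The difference from Sham was 0.47 in LPS (SE 0.12, limma adjusted p = 0.00906) and 0.40 in LPS/HI (SE 0.11, limma adjusted p = 0.0338). The LPS/HI call was lost without any 1 of 8 libraries (Sham replicates 2 to 6 and LPS/HI replicates 2, 4 and 5), where the adjusted p reached 0.0752.

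Psmb9 ran from 8.65 to 8.99 with a median of 8.87 in Sham, and the LPS samples had 9.68, 9.41, 9.11, 9.41 and 9.08. It ran from 8.70 to 9.25 with a median of 9.19 in NaCl/HI and from 9.03 to 9.24 with a median of 9.14 in LPS/HI. LPS and LPS/HI lay above Sham throughout, whereas 2 NaCl/HI samples lay within the Sham range. Against Sham, Psmb9 rose by 0.51 in LPS (SE 0.10, limma adjusted p = 0.00184). In LPS/HI the difference of 0.30 (SE 0.10) missed the threshold (limma adjusted p = 0.0591), and LPS/HI against LPS gave -0.21 (95% interval -0.42 to 0.01), which was not called either. The LPS/HI against Sham difference was called without LPS replicate 1, NaCl/HI replicate 4 or LPS/HI replicate 1 (limma adjusted p = 0.0417, 0.0291 and 0.0498). Other calls came from a fit of only the 2 groups and without lowered degrees of freedom (limma adjusted p = 0.0259 and 0.0303). The exact Wilcoxon rank-sum test called it too (adjusted p = 0.0340), while the replicate block, the library series block and quantile normalization did not.

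The chains of the transporter did not pass the test. Tap1 ran from 9.85 to 10.09 with a median of 9.998 in Sham, from 9.88 to 10.42 with a median of 10.28 in NaCl/HI and from 10.14 to 10.38 with a median of 10.22 in LPS/HI, and the LPS samples had 10.50, 10.36, 10.09, 9.97 and 9.99. In LPS, 2 samples were high and the other 3 lay between 9.97 and 10.09, whereas all LPS/HI samples lay above Sham. The differences from Sham were 0.20 in LPS, 0.25 in NaCl/HI and 0.25 in LPS/HI, none of them called (limma adjusted p = 0.151, 0.210 and 0.0733). The LPS/HI difference was called without LPS replicate 1 or NaCl/HI replicate 4 (limma adjusted p = 0.0488 and 0.0343). A fit of only the 2 groups and unlowered degrees of freedom also called it (limma adjusted p = 0.0240 and 0.0393). So did the exact Wilcoxon rank-sum test (adjusted p = 0.0340), but not the replicate block, the library series block or quantile normalization. Tap2 showed 0.19, 0.25 and 0.19 in the same order, again not called.

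B2m, the light chain of every class I molecule, had group means between 14.36 ± 0.12 (SD, n = 6) in NaCl/HI and 14.54 ± 0.19 (SD, n = 5) in LPS. It differed from Sham by 0.16 in LPS (95% interval 0.00 to 0.31, limma adjusted p = 0.145). In LPS/HI its difference of 0.13 was not called by limma but was by the exact Wilcoxon rank-sum test (adjusted p = 0.0440). Nlrc5, the transcriptional activator of class I genes, differed from Sham by 0.25 in LPS and 0.29 in LPS/HI, neither called (limma adjusted p = 0.166 and 0.114). In LPS, 1 sample had a Nlrc5 level of 9.96 and the other 4 lay between 9.22 and 9.31. Without it, Nlrc5 was called in LPS/HI against Sham (limma adjusted p = 0.0490).

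Of the 20 class I RT1 rows, 4 were called in any comparison. In LPS and in LPS/HI against Sham 10% of them were called each time, beside 17.8% and 8.77% of all genes. Most of the 20 rows stand for heavy chains, but RefSeq gives RT1-CE14 as a miscellaneous RNA and RT1-M10-1 as a long noncoding RNA. Copies of these genes are near-identical, and kallisto divides reads that fit several copies among them, so that the value of a single row is uncertain. RT1-N3 ran from 8.86 to 9.20 with a median of 9.01 in Sham, and the LPS samples had 9.78, 9.12, 9.34, 9.60 and 9.13. It ran from 8.65 to 9.40 with a median of 9.17 in NaCl/HI and from 9.12 to 9.32 with a median of 9.25 in LPS/HI. The LPS range overlapped with that of each other group, and 3 of the 5 LPS samples exceeded all Sham samples. RT1-N3 rose by 0.37 in LPS against Sham (SE 0.12, limma adjusted p = 0.0389). This call was lost without Sham replicate 2, 3 or 6 or LPS replicate 1, 3 or 4, where the difference ranged down to 0.28 and the adjusted p up to 0.128. It also ended in a fit of only the 2 groups and with quantile normalization (limma adjusted p = 0.0681 and 0.0659) and by the exact Wilcoxon rank-sum test (adjusted p = 0.262).

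RT1-S3 ran from 9.94 to 10.47 with a median of 10.23 in Sham, and the LPS samples had 10.86, 10.44, 10.58, 10.42 and 10.32. It ran from 9.83 to 10.55 with a median of 10.31 in NaCl/HI and from 10.26 to 10.51 with a median of 10.44 in LPS/HI. All groups overlapped, and the rise of 0.32 in LPS against Sham (SE 0.11) lay just inside the threshold (limma adjusted p = 0.0487). It was called without only 5 of the 23 libraries in turn, which were Sham replicate 1, LPS replicate 5 and NaCl/HI replicates 1, 3 and 4, and the adjusted p without the others rose to 0.155. It was not called with a library series block, in a fit of only the 2 groups or with quantile normalization (limma adjusted p = 0.0571, 0.0689 and 0.0840) or by the exact Wilcoxon rank-sum test (adjusted p = 0.101).

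RT1-CE14 and RT1-M2 were called in LPS/HI against Sham. RT1-CE14 ran from 9.03 to 9.27 with a median of 9.21 in Sham and from 9.32 to 9.60 with a median of 9.46 in LPS/HI, without overlap, while NaCl/HI ran from 8.95 to 9.34 with a median of 9.24 and the LPS samples had 9.60, 9.15, 9.36, 9.17 and 9.21. LPS/HI therefore overlapped with NaCl/HI at its lower end, and 2 LPS samples lay within the LPS/HI range or above it. The rise in LPS/HI was 0.28 (SE 0.08, limma adjusted p = 0.0295), against 0.12 in LPS, which was not called. The call was lost without Sham replicate 2 or 4 or LPS/HI replicate 2, 5 or 6 (limma adjusted p up to 0.0656) and with quantile normalization (limma adjusted p = 0.0554).

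RT1-M2 ran from 4.58 to 5.02 with a median of 4.94 in Sham, from 4.32 to 4.91 with a median of 4.65 in NaCl/HI and from 4.44 to 4.81 with a median of 4.58 in LPS/HI, and the LPS samples had 4.66, 4.56, 4.68, 4.68 and 4.65. Of the 6 Sham samples, 5 lay above all LPS and LPS/HI samples, and RT1-M2 fell by 0.29 in LPS/HI (SE 0.09, limma adjusted p = 0.0469). It was called without only 4 of the 23 libraries in turn, which were Sham replicate 3, NaCl/HI replicates 3 and 4 and LPS/HI replicate 1, and the adjusted p without the others rose to 0.108. It was not called with a library series block, in a fit of only the 2 groups or with quantile normalization (limma adjusted p = 0.0521, 0.0949 and 0.0572) or by the exact Wilcoxon rank-sum test (adjusted p = 0.0813). Its difference in LPS against Sham (-0.25) was called without Sham replicate 3 or NaCl/HI replicate 3 (limma adjusted p = 0.0230 and 0.0493).

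RT1-CE16, RT1-A1, RT1-CE15 and RT1-T24-3 were picked for their high values in the table, which also depend on gene length and set no order of expression. They were not called in any comparison. RT1-CE16 had 13.01 ± 0.24 in Sham and 13.33 ± 0.24 in LPS (SD, n = 6 and n = 5), a difference of 0.32 (SE 0.12, limma adjusted p = 0.0730), which was called without Sham replicate 5 or LPS replicate 4 (limma adjusted p = 0.0494 and 0.0339) and with degrees of freedom that were not lowered (limma adjusted p = 0.0436). RT1-A1, a classical heavy chain, had 11.82 ± 0.37 in Sham and 11.95 ± 0.37 in LPS, a difference of 0.13 that was smaller than either SD. RT1-T24-3 and RT1-CE15 differed by 0.40 and -0.26 between LPS and Sham, with 95% intervals of 0.02 to 0.78 and -0.71 to 0.19. The remaining 12 class I rows had differences between -0.28 and 0.49 over all comparisons, and the smallest adjusted p among them was 0.125.

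**Figure D2:**
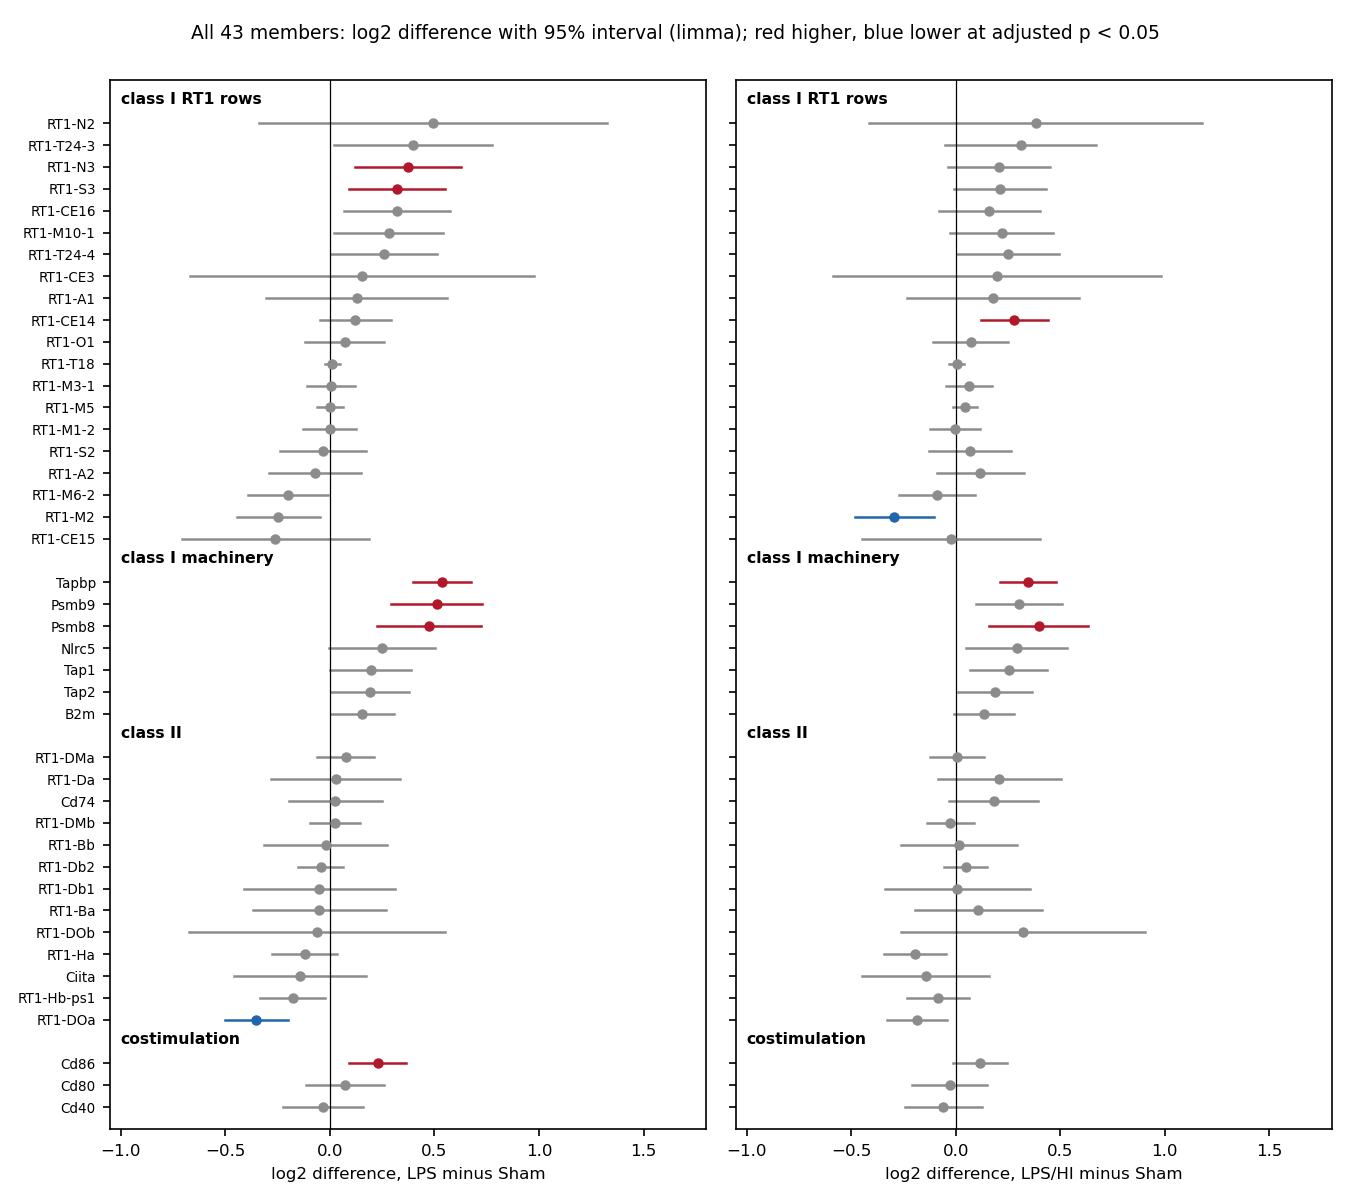
Log2 difference of all 43 members from Sham, in LPS on the left and in LPS/HI on the right, with 95% intervals from the limma fit and members grouped by class. Colored points passed an adjusted p of 0.05, and the widest intervals belong to RT1-N2, RT1-CE3 and RT1-DOb.

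The classical class II chains did not pass the test in any comparison. RT1-Ba and RT1-Bb form the RT1-B molecule, and RT1-Da and RT1-Db1 the RT1-D molecule. RT1-Da ran from 8.89 to 9.62 with a median of 9.47 in Sham, from 9.57 to 10.01 with a median of 9.63 in NaCl/HI and from 9.41 to 9.72 with a median of 9.55 in LPS/HI, and the LPS samples had 9.63, 9.07, 9.50, 8.89 and 9.90. The LPS samples spanned a wider range than Sham, and 5 of the 6 NaCl/HI samples lay close together above the Sham median. LPS against Sham gave 0.03 for RT1-Da (95% interval -0.28 to 0.34), -0.05 for RT1-Db1 (-0.41 to 0.31), -0.05 for RT1-Ba (-0.37 to 0.27) and -0.02 for RT1-Bb (-0.31 to 0.27). All 4 intervals lie inside a fold of 2 in either direction.

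Cd74, the invariant chain, ran from 10.75 to 11.22 with a median of 11.05 in Sham, from 11.20 to 11.56 with a median of 11.33 in NaCl/HI and from 11.10 to 11.34 with a median of 11.24 in LPS/HI, and the LPS samples had 11.32, 10.84, 11.11, 10.70 and 11.40. All 6 NaCl/HI samples lay above the Sham mean, yet the difference of 0.29 (SE 0.10) was not called (limma adjusted p = 0.205). Ciita, the activator of class II genes, had 6.23 ± 0.15 in Sham, 6.42 ± 0.19 in NaCl/HI and 6.08 ± 0.21 in LPS/HI (SD, n = 6 each) and 6.08 ± 0.43 in LPS (SD, n = 5). Its difference between LPS/HI and NaCl/HI was -0.34 (limma adjusted p = 0.400), and all 6 LPS/HI samples lay below the NaCl/HI mean.

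The clearest class II value was that of RT1-DOa, the alpha chain of the DO protein that holds back peptide exchange by DM. RT1-DOa ran from 5.92 to 6.19 with a median of 6.06 in Sham, and the LPS samples had 5.63, 5.55, 5.92, 5.69 and 5.76. It ran from 5.89 to 6.12 with a median of 6.06 in NaCl/HI and from 5.83 to 5.92 with a median of 5.87 in LPS/HI. All LPS and all LPS/HI samples lay below all Sham samples, whereas NaCl/HI overlapped with Sham. RT1-DOa fell by 0.35 in LPS (SE 0.07, limma adjusted p = 0.00200), to 0.78 of the Sham level. In LPS/HI the difference was -0.19 (SE 0.07), which missed the threshold (limma adjusted p = 0.0934). It was called with degrees of freedom that were not lowered (limma adjusted p = 0.0461) and by the exact Wilcoxon rank-sum test (adjusted p = 0.0340). A fit of only the 2 groups, the replicate or library series block and quantile normalization did not call it.

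The partner chain RT1-DOb spread widely, with 6.56 to 8.49 in Sham and 6.82 to 8.23 in LPS, and differed by -0.06 between them (95% interval -0.67 to 0.55). RT1-DMa and RT1-DMb, the peptide exchange factor, had within-group SDs of 0.103 and 0.0867, near the median of 0.0979 over all genes. Their differences were 0.07 and 0.02 in LPS against Sham, with 95% intervals of -0.06 to 0.21 and -0.09 to 0.14. RT1-Db2 differed by -0.04, RT1-Ha by -0.12 and the pseudogene RT1-Hb-ps1 by -0.18 in that comparison, none called. In LPS/HI, RT1-Ha ran from 8.17 to 8.40 with a median of 8.30 and lay below all Sham samples, which ran from 8.41 to 8.62 with a median of 8.48, with a difference of -0.20 (limma adjusted p = 0.0868), called without NaCl/HI replicate 4 (limma adjusted p = 0.0416).

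Of the costimulatory genes, Cd86, a ligand of Cd28 and Ctla4 on T cells, rose in LPS. It ran from 10.45 to 10.77 with a median of 10.58 in Sham, and the LPS samples had 10.72, 10.87, 10.80, 10.78 and 10.87. It ran from 10.35 to 10.81 with a median of 10.54 in NaCl/HI and from 10.64 to 10.76 with a median of 10.69 in LPS/HI. The LPS samples were high and close together, and 1 Sham, 1 NaCl/HI and 3 LPS/HI samples reached into their range. The difference was 0.23 against Sham (SE 0.07, limma adjusted p = 0.0196) and 0.25 against NaCl/HI (SE 0.07, limma adjusted p = 0.0193). Both calls were lost without LPS replicate 2 (limma adjusted p = 0.0552 and 0.0559), the first also with quantile normalization (limma adjusted p = 0.0537), and the other also in a fit of only the 2 groups. Cd80, the other ligand of Cd28, differed from Sham by 0.07 in LPS (95% interval -0.11 to 0.26), and Cd40, the receptor of Cd40lg, by -0.03 (-0.23 to 0.16), neither called.

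Genes that feed or control the same pathways were read from lists of their own, beside 10.2% of all genes higher and 7.56% lower in LPS against Sham. Of 11 measured genes of class I peptide supply and loading, 2 were higher in LPS against Sham and none lower, and these were the proteasome activator subunits Psme1 and Psme2 (differences 0.40 and 0.43, limma adjusted p = 4.82e-05 and 0.000107). The 3 constitutive catalytic subunits, whose places Psmb8, Psmb9 and Psmb10 take in the immunoproteasome, were all higher, with Psmb5 at 0.32 and Psmb6 at 0.27 (limma adjusted p = 0.00281 and 0.0247). Of 8 genes of endosomal processing for class II, 2 were higher and 1 lower. The thiol reductase Ifi30 rose by 0.52 and the protease Ctsh by 0.30, and the protease Ctsl fell (difference -0.22), with limma adjusted p of 2.09e-06, 0.000333 and 0.0111. Of 20 promoter factors and interferon signalling genes, 7 were higher and none lower, led by the interferon gamma receptor chain Ifngr2 (0.25) and the X box factor Rfx5 (0.19). Of 10 other costimulatory and checkpoint ligands, Tnfsf9 was higher (0.43) and Cd276 lower (-0.59), and of 6 MHC-like molecules Cd1d1, which presents lipids, was higher (0.20). The list medians were -0.01 for peptide supply, 0.27 for the constitutive subunits, 0.04 for endosomal processing, 0.10 for promoter factors and interferon signalling, -0.01 for the other costimulatory ligands and -0.06 for MHC-like molecules, beside -0.01 over all genes.

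Markers of other cells moved in the same comparison. In LPS against Sham, 5 of 10 microglia markers were lower, as were 3 of 9 markers of border-associated macrophages (summed level 15.25 to 16.05 in Sham and 14.95 to 15.40 in LPS), and 3 of 8 measured monocyte markers were higher, namely Plac8 (1.17), Ly86 (0.47) and Cd14 (0.48). The summed monocyte level was 12.70 to 13.10 in Sham, 13.26 to 13.67 in LPS, 12.99 to 13.33 in NaCl/HI and 13.12 to 13.52 in LPS/HI. Of the neutrophil markers 2 of 10 were lower (Camp at -0.71 and Ngp at -1.07), as was 1 of 9 T and NK cell markers (Cd5 at -0.37). No B cell marker other than Cd79b (0.52) and no dendritic cell marker was called. The part of these cells in the Tapbp, Psmb8, Psmb9, RT1-DOa and Cd86 values was not tested.

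In LPS/HI against Sham, 3 members were higher (Tapbp, Psmb8 and RT1-CE14) and 1 was lower (RT1-M2), 9.3% of the members against 8.77% of all genes (5.3% higher and 3.48% lower). In this fit the members were called about as often as the whole table, but both counts moved with the setting. Fitting the 2 groups alone called 5 members and 1024 genes, the exact Wilcoxon rank-sum test 8 members and 1998 genes, and the fit without Sham replicate 2 called 1 member and 1203 genes. The 7 machinery differences were positive with a median of 0.29, beside 0.14 over the class I RT1 rows, 0.01 over class II and -0.00 over all genes. Of all 20301 genes, 9936 had a positive difference. In 6 members, namely Tapbp, Psmb9, Tap1, RT1-CE14, RT1-DOa and RT1-Ha, the 2 groups did not overlap, as in 6.37% of all genes. Psme1 (0.25) and Psme2 (0.26) were higher again, as were Ifi30 (0.22), Ctsh (0.17), Psmb5 (0.26), Psmb7 (0.18), Ifngr2 (0.19) and Stat2 (0.14), and Cd276 was lower (-0.30). This comparison shares its Sham samples with LPS against Sham. Neutrophil markers were higher in 4 of 10 cases here, with a summed level of 10.72 to 11.47 in Sham and 11.25 to 12.99 in LPS/HI, and 3 of 8 monocyte markers were higher. Of the other lists, dendritic cells, B cells, endothelium and astrocytes each had 1 marker higher, microglia and border-associated macrophages each had 1 lower, neurons had 2 of 6 lower, and T and NK cells had 1 higher and 1 lower. Their part in the member values was not tested.

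HI without LPS left the members below the threshold. In NaCl/HI against Sham limma called 0 of the 43 members and 0.00985% of all genes. At an unadjusted p under 0.05 there were 8 members, which were Tap1, Tap2, Tapbp, Psmb9, Cd74, RT1-Da and RT1-DOb with positive differences and RT1-M2 with a negative one, beside 14.8% of all genes. The exact Wilcoxon rank-sum test with adjustment over all genes called 0 members and 0 genes in all. In groups this small its p cannot fall below a floor. Many genes must reach that floor before any passes the adjustment, so this 0 says little about single genes. The positive differences of Tap1, Tap2, Tapbp and Psmb9 lay between 0.22 and 0.26, close to each other. RT1-DOb had the largest difference, 0.72 (95% interval 0.14 to 1.31). This count moved with NaCl/HI replicate 4, as did that of the whole table, which rose from 2 to 556 genes without it. Then Tap1, Tap2 and Tapbp were called with differences of 0.32, 0.32 and 0.26 (limma adjusted p = 0.0337, 0.0280 and 0.0332).

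Adding HI to LPS moved no member past the threshold. In LPS/HI against LPS, 0 of 43 members were called beside 1.94% of all genes, with 2 members and 15.5% of all genes at an unadjusted p under 0.05. The Wilcoxon test called 0 members and 0 genes in all, under the limit of its floor given above. The 394 genes called in all fell to 81 without LPS replicate 4. The 2 members were Tapbp, lower by 0.19 (95% interval -0.33 to -0.05, limma adjusted p = 0.141), and RT1-DOa, higher by 0.17 (0.02 to 0.32, limma adjusted p = 0.260). In LPS/HI against NaCl/HI, which asks what LPS adds to HI in the same tissue, 0 of 43 members were called beside 0.202% of all genes, with 6 members and 10.6% of all genes at an unadjusted p under 0.05. The Wilcoxon test again called 0 members and 0 genes in all, under the same limit. Without 1 library the count over all genes ranged from 1 (without NaCl/HI replicate 1 or 2 or LPS/HI replicate 2) to 134 (without LPS/HI replicate 1). The 6 members were RT1-CE14 (0.25), Psmb8 (0.31), B2m (0.16) and Cd86 (0.14) with higher values and RT1-DOa (-0.15) and Ciita (-0.34) with lower ones. 

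LPS against NaCl/HI differed in both the stimulus and the tissue. Tapbp (0.32, SE 0.07, limma adjusted p = 0.00404), Psmb8 (0.39, SE 0.12, limma adjusted p = 0.0463) and Cd86 were higher and RT1-DOa was lower (-0.32, limma adjusted p = 0.00804). These were 4 of 43 members beside 8.98% of all genes (5.32% higher and 3.66% lower). Without LPS replicate 2 the count fell to 2, as Psmb8 and Cd86 were lost, and Psmb8 was called without only 4 of the 23 libraries in turn (Sham replicate 1, LPS replicate 5, NaCl/HI replicate 1 and LPS/HI replicate 1). In a fit of only these 2 groups none of the 4 was called (limma adjusted p = 0.0775 for Tapbp, 0.193 for Psmb8, 0.124 for Cd86 and 0.151 for RT1-DOa). The Psmb8 call also ended with the library series as a block and with quantile normalization (limma adjusted p = 0.0541 and 0.0629). In RT1-DMa alone the ranges did not overlap, at 13.32 to 13.42 in LPS and 13.05 to 13.30 in NaCl/HI, as in 7.31% of all genes, and its difference of 0.14 was not called. For the classical class II chains, Cd74 and Ciita the LPS means were lower than the NaCl/HI means, by 0.33 for RT1-Ba, 0.27 for Cd74 and 0.34 for Ciita, with none called. Without LPS replicate 5, Ciita (-0.48, limma adjusted p = 0.0377) and Cd74 (-0.35, limma adjusted p = 0.0483) were called, and without Sham replicate 1 RT1-DOb was (-0.78, limma adjusted p = 0.0463). In the same comparison 3 of 10 dendritic cell markers (Ccr7, Clec9a and Siglech), 3 of 10 microglia markers, 2 of 9 markers of border-associated macrophages, 1 of 10 neutrophil and 1 of 9 T and NK cell markers were lower, and 2 of 8 monocyte markers and 1 of 8 B cell markers were higher. Endothelium had 1 marker higher and 1 lower, astrocytes 1 higher and neurons 1 lower. Their part in the member values was not tested.

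The interaction asks whether LPS changed a gene by the same amount without HI, against uninjected Sham pups, and with HI, against saline-injected pups. It was called for 1 member, Tapbp, with a negative sign, and for 1.08% of all genes (0.719% negative). These 220 genes became 2 with the replicate number as a block, 32 without LPS replicate 2 and 493 without NaCl/HI replicate 4. For Tapbp, LPS minus Sham was 0.54 and LPS/HI minus NaCl/HI was 0.13 (95% interval -0.01 to 0.26), an interaction of -0.41 (SE 0.09, limma adjusted p = 0.0361). Psmb9 had the larger interaction estimate, -0.46 (SE 0.14), which was not called (limma adjusted p = 0.118). The Tapbp call was lost without 15 of the 23 libraries in turn (limma adjusted p up to 0.0816) and with the replicate number as a block (limma adjusted p = 0.112). It held without replicates 3 or 5 of Sham, LPS or LPS/HI and without NaCl/HI replicates 3 or 4 (limma adjusted p = 0.0129 to 0.0489). The Psmb9 estimate was called without NaCl/HI replicate 4 (-0.54, limma adjusted p = 0.0308).

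The libraries are numbered through in the labels, and the lower and the higher numbers were taken as 2 series, with 3 samples of each group in each except 2 LPS samples in the second. Nothing says that the series were processed apart. In the first and second series the LPS against Sham difference was 0.62 and 0.42 for Tapbp, 0.43 and 0.52 for Psmb8, 0.53 and 0.46 for Psmb9, 0.21 and 0.26 for Cd86 and -0.38 and -0.32 for RT1-DOa. For RT1-N3 it was 0.43 and 0.31, and for RT1-S3 0.47 and 0.12. Each kept its sign in both series, and the RT1-S3 difference was smaller in the second. As these members were called on the same samples, a shared sign is no replication. Of members not called, RT1-Da gave -0.16 and 0.21 and RT1-DOb 0.25 and -0.49, while Tap1 gave 0.28 and 0.04. LPS/HI against Sham gave 0.32 and 0.37 for Tapbp, 0.37 and 0.43 for Psmb8, 0.27 and 0.29 for RT1-CE14 and -0.23 and -0.36 for RT1-M2, again with 1 sign in both.

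Samples of 1 group differed from each other in these genes more than in most of the table. The median within-group SD was 0.184 over the class I RT1 rows and 0.118 over the class II RT1 rows, beside 0.0979 over all genes, and 21 of the 43 members lay above the 90th percentile of all genes. RT1-N2 had the widest spread with an SD of 0.701, and ran from 5.55 to 8.09 in LPS and from 5.11 to 7.33 in NaCl/HI, followed by RT1-CE3 with 0.690 and RT1-DOb with 0.514. Among the members with a mean level over 8, RT1-Db2 (SD 0.0680), RT1-M3-1 (0.0813) and RT1-DMb (0.0867) spread least.

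These deviations were shared in blocks, which are described here by Pearson's r over the 23 samples after the group means were removed. The samples share the removal of the 3 variables, which ties their values, and genes of 1 block are not independent. RT1-Ba, RT1-Bb, RT1-Da, RT1-Db1 and Cd74 formed the tightest block, with r between 0.905 and 0.970 in their 10 pairs (median 0.947). Ciita had r = 0.831 with the mean of these 5 rows, and among the genes outside them only Thbs1 (0.869) and Xdh (0.848) followed it more closely. RT1-Da stood at 9.90 in LPS replicate 5 and at 8.89 in LPS replicate 4, the highest and the lowest LPS sample, and at 10.01 in NaCl/HI replicate 3. RT1-DMa and RT1-DMb followed each other (r = 0.841) and the classical chains less (0.182 and 0.515), and RT1-Db2 did not follow them (0.039). Against the summed markers of other cells, the mean of the 5 rows had r = 0.558 with neutrophils, 0.245 with monocytes, 0.060 with B cells, -0.078 with border-associated macrophages and -0.430 with the dendritic cell list, whose sum is mostly Fscn1, and the part of these cells in the block was not tested.

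**Figure D3:**
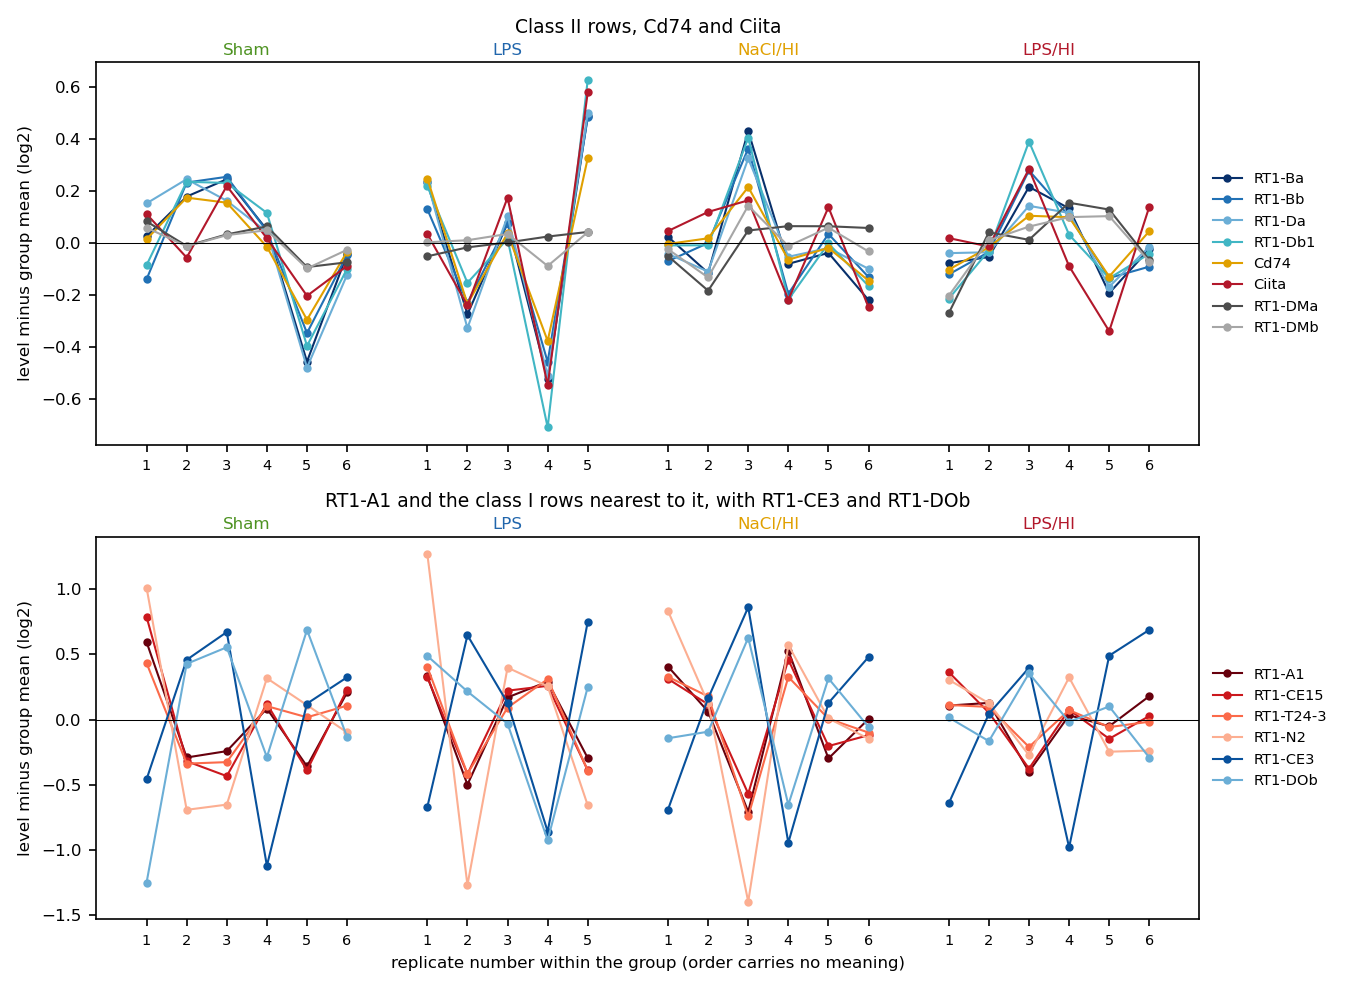
Level minus group mean (log2) in each of the 23 samples, in the upper panel for class II rows, Cd74 and Ciita and in the lower panel for RT1-A1, the rows nearest to it, RT1-CE3 and RT1-DOb. Lines join the samples of a group and replicate order carries no meaning. The classical class II lines run together while RT1-DMa and RT1-DMb stay near 0, and RT1-CE3 and RT1-DOb mostly run against RT1-A1.

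A second block joined class I rows. It is described through RT1-A1, which was picked after its values had been seen. RT1-A1 had r = 0.950 with RT1-CE15, 0.904 with RT1-T24-3, 0.855 with RT1-T24-4, 0.846 with RT1-N2 and 0.820 with RT1-A2, and it ran against RT1-DOb (-0.779) and RT1-CE3 (-0.674). In Sham replicate 1, for example, RT1-A1 stood at 12.41, the highest of its group, while RT1-DOb stood at 6.56, the lowest. In NaCl/HI replicate 3 RT1-A1 was the lowest of its group (10.92) and RT1-DOb the highest (9.16). Among the machinery genes RT1-A1 followed Psmb8 (0.774) and Nlrc5 (0.556), and ran against Tap2 (-0.589).

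Of the 25 genes other than RT1-A1 itself with the largest absolute r to it, 24 had a chromosome in RefSeq and 13 of these lay on chromosome 20, which carries the RT1 complex and 2.82% of the 18625 genes matched by symbol. Of the 13, 9 were members and 4 were not, namely Snrpc (0.945), Vps52 (-0.827), Ncr3 (-0.799) and Pfdn6 (0.767). Chromosome 10, with 8.31% of the matched genes, held 5 of the 24, which were Snrpc-ps3 (-0.827), Ift140 (0.814), Mmd (-0.800), Cog1 (0.790) and Gprc5c (0.783), and the other 6 lay on 5 further chromosomes.

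**Figure D4:**
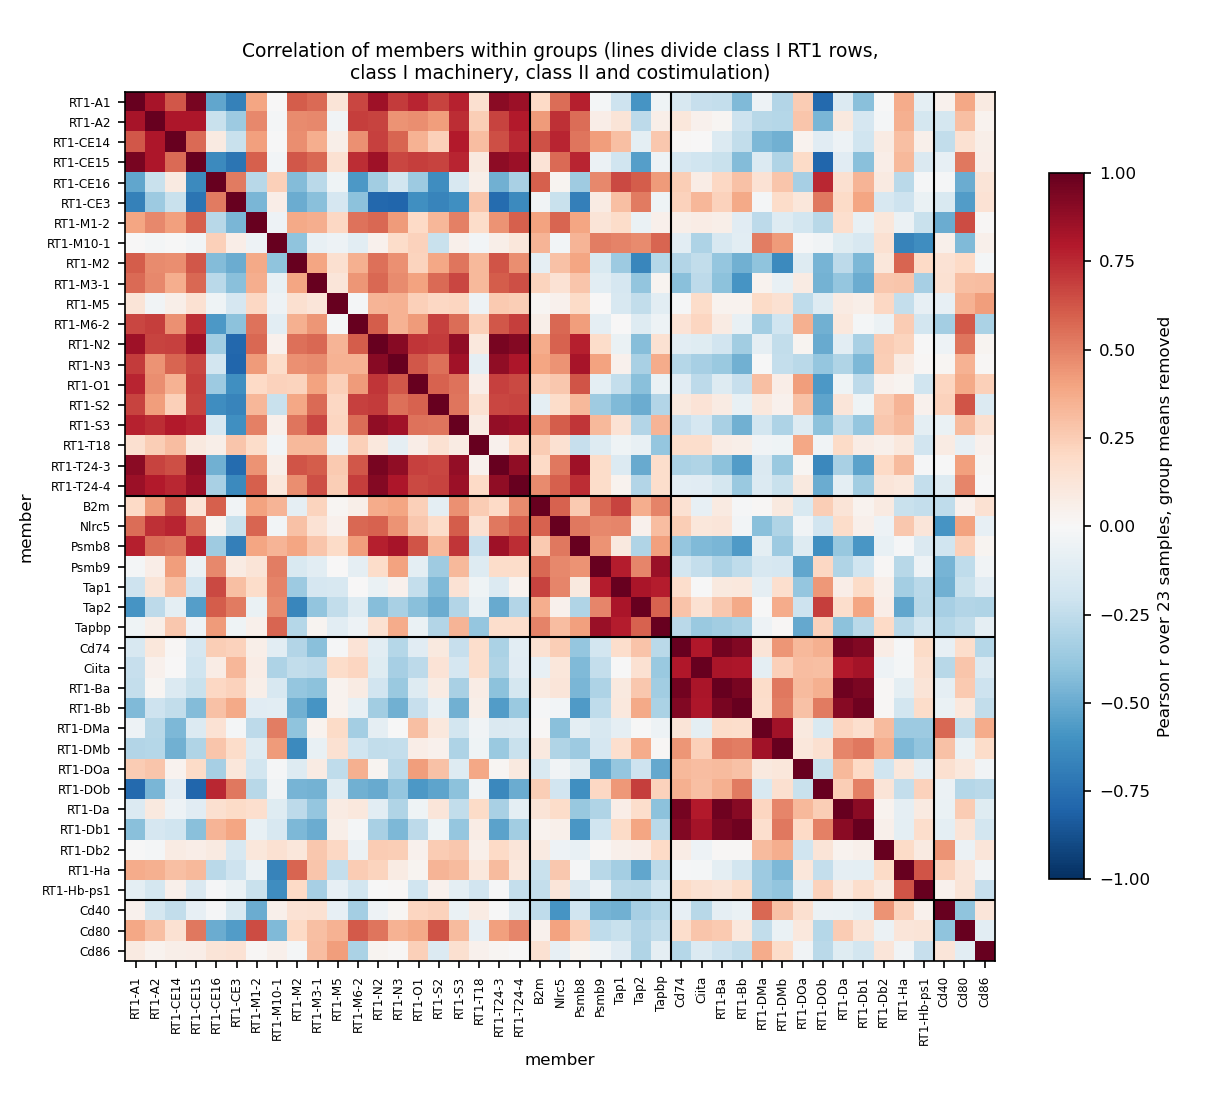
Pearson's r between each pair of the 43 members over 23 samples after the group means were removed, with lines between class I RT1 rows, class I machinery, class II and costimulation. The dark red square in class II is RT1-Ba, RT1-Bb, RT1-Da, RT1-Db1, Cd74 and Ciita, and the 190 pairs of class I RT1 rows have a median of 0.391, with RT1-CE3 and RT1-CE16 mostly blue.

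Within the machinery, Tapbp followed Psmb9 (r = 0.861), and Tap1 followed Tap2 (0.819), Tapbp (0.787) and Psmb9 (0.785), the gene that faces it. Psmb8 followed Nlrc5 (0.524) and Psmb9 (0.446) less closely, had 0.094 with Tap1 and ran against Tap2 (-0.303). The 21 pairs of machinery genes had r between -0.303 and 0.861 with a median of 0.489, and the 190 pairs of class I RT1 rows between -0.792 and 0.950. Cd80 had its largest r with the class I row RT1-M1-2 (0.655).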

How the data were processed

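RNA-seq of CD11b/c bead-isolated brain cells of newborn rats was analysed in 23 samples of 4 groups. The authors quantified reads with kallisto 0.48.0 on mRatBN7.2, a Brown Norway assembly while the pups were outbred Wistar. The authors summed transcripts to genes, left out genes with few counts, applied the rlog of DESeq2 and removed 3 surrogate variables, so that the deposited values are log2 levels of 20301 genes, with library medians of 7.75 to 7.82. The table holds no counts, depth is unknown, and no count test was run.

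Genes were tested with limma 3.58.1 in R 4.3.3 on the values as deposited, with group means over all 23 samples, a variance trend and Benjamini-Hochberg adjustment over all genes. Residual degrees of freedom were lowered to 16, the number of dimensions the values spanned, from 19. The fit was also run on simulated data with known changes, whose outcome is not given here. Pups or pools are separate samples per the labels. Members and lists were chosen with earlier results of these data known. Named were all members outside the RT1 rows, all class II RT1 rows, class I RT1 rows called at least once and the 4 with the highest mean. Other class I RT1 rows were named after their values were seen, for their spread, correlation, annotation or promoter match. Other pathway genes were named by the largest difference among those called, at most 2 per direction and list. Cell type lists for endothelium, astrocytes and neurons had 8, 6 and 6 measured markers, with 1, 1 and 0 higher and 3, 0 and 4 lower in LPS against Sham. Alternatives were degrees of freedom not lowered, only the 2 groups compared, replicate and library series blocks, quantile normalization, the Wilcoxon test, a filter, a fold threshold and leaving out each library. Promoter sequences came from RefSeq tables (GRCr8) read with Python 3.11.15.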

Additional observations from a re-analysis of the deposited data

Results flagged for a closer look

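In groups of 5 or 6 samples, 1 sample stood far from the others (Dixon's criterion) in 10 of 124 tests over the 31 members that the naming rule selects, and chance flags about 1 in 20. The tests are not independent, since RT1-Ba, RT1-Da and RT1-Db1 vary together, so no excess over chance is claimed. NaCl/HI replicate 3 gave 4 of the 10, with the highest RT1-Ba (9.79), RT1-Da (10.01) and RT1-Db1 (9.46) and the lowest RT1-S3 (9.83) of its group. Tap1 was lowest in NaCl/HI replicate 4 (9.88), the library without which Tap1, Tap2 and Tapbp passed the limma threshold in NaCl/HI against Sham. Nlrc5 was highest in LPS replicate 1 (9.96), and Cd40 was lowest in Sham replicate 1 (9.46). RT1-M2 was lowest in Sham replicate 3 (4.58) and in LPS replicate 2 (4.56), and RT1-CE16 was lowest in LPS/HI replicate 1 (12.92). The interaction of LPS with HI for Tapbp was -0.41 (SE 0.09, limma adjusted p = 0.0361). It was called without only 8 of the 23 libraries in turn, was lost with the replicate block (limma adjusted p = 0.112), and compares LPS with uninjected Sham pups but LPS/HI with saline-injected NaCl/HI pups.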

How the results depend on the processing

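No called value reversed its sign. Quantile normalization left 4 members called in LPS against Sham (3 higher, 1 lower) and 2 in LPS/HI against Sham (2 higher). It ended the calls of Cd86, RT1-N3 and RT1-S3 in the first and of RT1-CE14 and RT1-M2 in the other. In LPS/HI against Sham, degrees of freedom that were not lowered gave 8 members, as did the exact Wilcoxon rank-sum test (8), which called 5 in LPS against Sham and ended RT1-N3, RT1-S3 and, in LPS/HI, RT1-M2. For LPS against NaCl/HI, a fit of only the 2 groups gave 0 members (494 of all genes) and the Wilcoxon test 0 (0 of all genes). The floor of the exact p in groups this small limits what the Wilcoxon count can show. A fold above 2 in addition left 0 members in each of these comparisons and in the interaction. The cause was not tested. Leaving out each library in turn gave 5 to 8 members in LPS against Sham, 1 to 7 in LPS/HI against Sham (7 without NaCl/HI replicate 4), 2 to 6 in LPS against NaCl/HI, 0 to 2 in the interaction, 0 to 3 in NaCl/HI against Sham and 0 in the other comparisons. In LPS/HI against Sham the count moved by over 1.5 times without Sham replicates 2, 4, 5 or 6, NaCl/HI replicate 4 or LPS/HI replicates 2, 4, 5 or 6.

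The replicate numbers shared by the groups showed no pairing in these values. Same-numbered samples had correlations of deviations from -0.475 to 0.470 (median -0.03) in 33 pairs, beside a median of 0.006 in 165 pairs of different number. Of 23 samples, 5 correlated best with their own number. The 3 removed variables could have carried an effect shared by a number, so this check cannot exclude pairing. With the replicate block 8 members were called in LPS against Sham and 4 in LPS/HI against Sham. The block added Nlrc5 in both (adjusted p = 0.0290 and 0.0309), lost RT1-M2 in LPS/HI (0.0594) and lost the interaction of Tapbp (0 members). Over all genes the replicate block moved the calls in LPS against Sham from 3606 to 2282, and a fit of the 2 groups alone to 2337. In LPS/HI against Sham 1781 genes were called, with 3094 without lowered degrees of freedom, 1024 with the 2 groups alone and 751 with the block, and 769 without LPS/HI replicate 5 to 2544 without LPS/HI replicate 1. LPS against Sham fell to 2395 and LPS against NaCl/HI from 1824 to 1076 without LPS replicate 2. NaCl/HI against Sham rose from 2 genes to 556 without NaCl/HI replicate 4. A filter that left 15225 genes kept the members' counts. Of 6882 values of single members and settings, 6706 were counted as unchanged. These were called both times with 1 sign, or uncalled both times within the SE of the main difference. Signs of uncalled values were not compared, and 10 values stayed uncalled but moved by more than the SE. Without counts, the precision of low rows such as RT1-M2 and RT1-DOa cannot be given.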
